A study of Rattus norvegicus with 6 samples.

Results

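The Notch signalling genes were followed in a comparison of open chromatin between adult and newborn rat islets. The assay was ATAC-seq, which cuts and tags DNA where chromatin lets the enzyme Tn5 in. It gave the number of Tn5 integrations in each accessible site (ACS) of each library. An ACS was assigned to Notch1, Notch2, Notch3, Jag1, Dll1, Dll4, Rbpj, Hes1, Hey1 or Hey2 when the deposited annotation named that gene as the nearest one. Whether a site acts on its nearest gene was not measured. This gave 132 of the 101603 distinct ACS. The libraries were made from dissociated, unsorted islet cells of Sprague–Dawley rats. The Adult group held 3 libraries, from 3 adult males and numbered 4, 5 and 6, and the P10 group held 3 libraries, each from pooled pups of a litter at postnatal day 10 and numbered 1, 2 and 3. The pups were of both sexes, so that age, sex and pooling cannot be told apart here. The comparison asked which sites gain or lose accessibility as islets mature after birth. Up denotes a site more accessible in Adult and Down a site more accessible in P10.

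Notch signalling passes between cells in contact. Ligands of the Jagged and Delta-like families on the surface of a cell bind Notch receptors on its neighbour, the receptor is cut by membrane proteases, and its intracellular domain enters the nucleus. There it joins the DNA-binding protein Rbpj, which turns from repression to activation, and genes such as Hes1, Hey1 and Hey2, which encode basic helix-loop-helix repressors, are transcribed. In the embryonic pancreas the pathway holds progenitor cells back from the endocrine fate through Hes1, and after birth it is known for its part in ductal, endothelial and other non-endocrine cells.

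Promoter sequences of RefSeq (assembly GRCr8, 250 bases before to 50 bases after a gene start) were found for 8 of the 10 genes, with 2 starts for Rbpj. These starts need not be those used in the deposited annotation, which is on Rn5. The promoters of Jag1 and Notch1 are shown because their start-site ACS were called Down, and that of Hes1 because its start-site ACS were not called and its promoter is a textbook target of Rbpj. Capitals mark the Rbpj core letters TGGGAA or, on the other strand, TTCCCA.
Jag1 (GRCr8, chr3:144894834-144895133, minus strand): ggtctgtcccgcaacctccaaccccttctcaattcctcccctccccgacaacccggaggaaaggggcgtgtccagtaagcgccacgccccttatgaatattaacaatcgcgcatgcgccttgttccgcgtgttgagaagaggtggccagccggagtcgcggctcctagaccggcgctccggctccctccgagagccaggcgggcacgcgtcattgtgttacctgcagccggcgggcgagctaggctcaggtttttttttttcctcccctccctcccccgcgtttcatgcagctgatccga
Notch1 (GRCr8, chr3:29721564-29721863, minus strand): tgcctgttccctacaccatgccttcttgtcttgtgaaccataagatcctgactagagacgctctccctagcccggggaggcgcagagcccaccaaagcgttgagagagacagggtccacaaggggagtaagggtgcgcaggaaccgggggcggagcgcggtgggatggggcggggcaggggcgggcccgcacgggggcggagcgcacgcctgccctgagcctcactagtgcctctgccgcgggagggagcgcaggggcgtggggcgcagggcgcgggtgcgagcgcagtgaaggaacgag
Hes1 (GRCr8, chr11:84212996-84213295, minus strand): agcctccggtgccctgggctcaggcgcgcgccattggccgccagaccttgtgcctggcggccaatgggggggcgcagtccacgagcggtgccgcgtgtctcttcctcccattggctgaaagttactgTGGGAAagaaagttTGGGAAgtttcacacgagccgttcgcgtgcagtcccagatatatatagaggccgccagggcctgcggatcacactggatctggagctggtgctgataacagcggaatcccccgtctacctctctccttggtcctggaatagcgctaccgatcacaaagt

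The Hes1 promoter held 2 Rbpj core matches, 123 and 109 bases before the start and on the same strand. The Jag1 and Notch1 windows held none. Dll1 and Hey2 also held 2 matches each, Notch3 held 1, Notch2 held none, and the 2 Rbpj starts held 1 and 2. Of all 33469 RefSeq promoters of this length, 25.7% held the letters on either strand. The N-box CACNAG, bound by Hes repressors, was matched 4 times in the Hes1 window and 4 times in the Notch1 window and not in that of Jag1, and 43.1% of all promoters held it. The class C box CACGNG was matched 4 times for Hes1, 2 times for Jag1 and 1 time for Notch1, against 26.1% of all promoters with a match. Its letters overlap those of the N-box at 2 positions of the Hes1 window. The E-box CAGGTG was matched in 1 of the 9 windows, that of an Rbpj start, and in 18.8% of all promoters. These matches describe the letters and not binding.

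The Adult libraries held 7916919 to 11903909 integrations in ACS, with a median of 36 to 53 per ACS, and the P10 libraries held 13491534 to 21168463, with a median of 63 to 96. Across all ACS, 12.3% were called Up and 6.63% Down (edgeR quasi-likelihood test, p below 0.05 and Benjamini-Hochberg FDR below 0.2, the limits of the study). The Up share of all calls was 64.98% with TMM factors, 49.33% with column sums as library sizes, which moved the median of all ACS to -0.10, and 54.88% with cyclic loess. The ACS nearest to islet hormone and transcription factor genes were counted to describe the tissue. Beta cell markers had 123 ACS at 10 of 12 genes, without Mafa and G6pc2, and their summed level ran from 1262 to 1528 CPM (counts scaled to the size of the library) in Adult and from 1203 to 1583 CPM in P10. Summed over all ACS of a gene, Ins1 and Ins2 were Down (-0.59 and -0.38) and Nkx6-1 was Up (0.35). All 8 alpha and 5 delta cell markers had ACS. Endothelial markers had ACS at 15 of 15 genes as well, so that having ACS cannot establish islet identity.

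Of the 132 Notch ACS, 23 (17.4%) were called Up, against the background of 12.3%, and 16 (12.1%) were called Down, against 6.63%. The log2 fold change of Adult over P10 had a median of 0.05 over the Notch ACS and -0.01 over all ACS. Under column sums the same 132 ACS gave 21 Up and 24 Down calls, and without P10 replicate 3 they gave 17 Up and 10 Down. Without overlap between the groups, the Adult libraries were lower in 23 Notch ACS (17.4%) and higher in 30 (22.7%), against 10.9% and 13.8% of all ACS. Within 1 kb of a start (TSS class), 0 of 15 ACS were Up and 3 were Down, against 2.73% Up and 7.87% Down over all ACS of this class. Proximal ACS, up to 10 kb away, counted 1 Up and 2 Down among 12, against 11.2% and 6.71% over all ACS of this class. Among 105 distal ACS, 22 were Up and 11 Down, against 13.8% and 6.45% over all distal ACS. Jag1 alone held 8 of the 16 Down calls, and the 112 ACS of the other 9 genes counted 22 Up and 8 Down (7.14%). By role, the ligands had 3 Up and 9 Down among 38 ACS (median -0.37). Of these, 20 ACS and 8 Down calls were of Jag1, whereas Dll1 had a median of 0.03. The receptors had 1 Up and 2 Down among 16 (median -0.30), with both Down calls at Notch1. Rbpj had 7 Up and 1 Down among 12 (median 0.60) and the targets 12 Up and 4 Down among 66 (median 0.15). In whole islets, fewer cells of a type and a less open site per cell cannot be told apart.

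**Figure D1:**
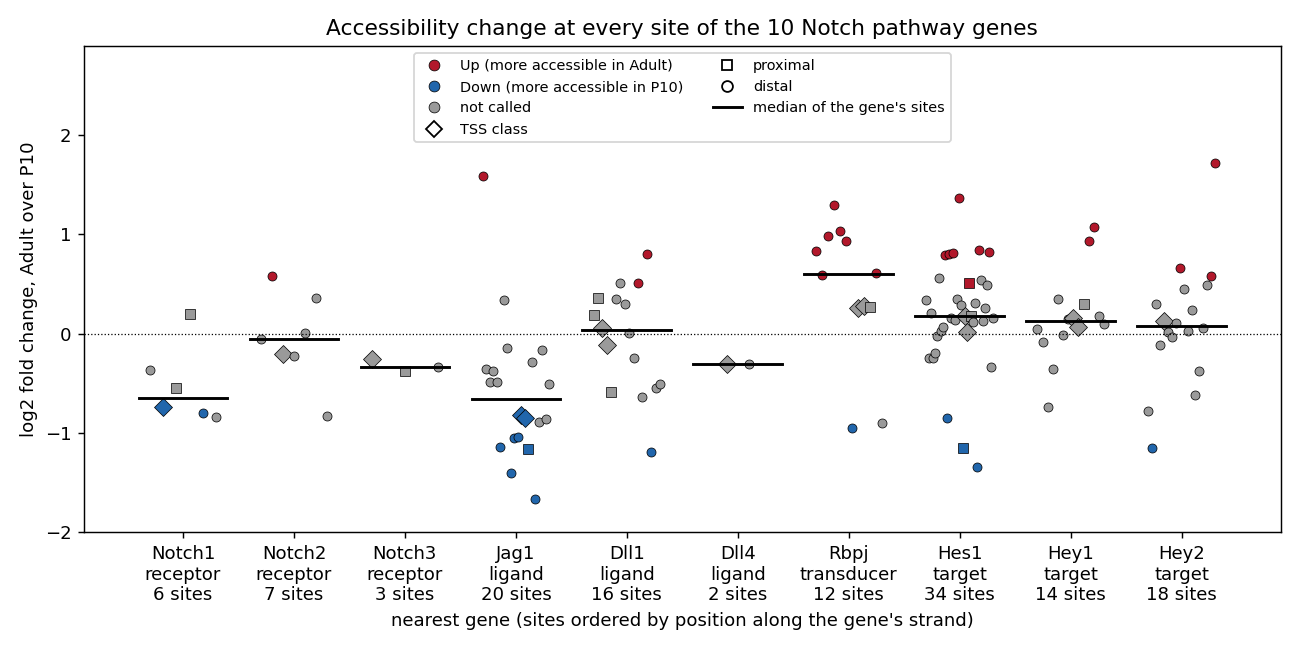
Each point is an ACS of the named nearest gene. The vertical axis gives the log2 fold change of Adult over P10, colour the call, shape the class and the bar the median over the sites of a gene. Jag1 has 18 of 20 sites below 0, whereas Rbpj has 10 of 12 above 0.

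The 15 start-site ACS spanned a wide range of levels per length and 3 were called, at Jag1 and Notch1. The highest per length was that of Hey2, at 146.8 CPM per kilobase over the 6 libraries, followed by both Rbpj sites (82.5 and 68.2) and the Hes1 site 915 bp upstream (78.6). The lowest was that of Notch3, at 11.3 CPM per kilobase. Of the 12 start-site ACS without a call, the log2 fold change ran from -0.30 at Dll4 to 0.28 at Rbpj, and the groups overlapped in each. Without Adult replicate 5, both Rbpj start sites passed the limits, with log2 fold changes of 0.38 (adjusted p = 0.082, edgeR) and 0.37 (adjusted p = 0.106).

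**Figure D2:**
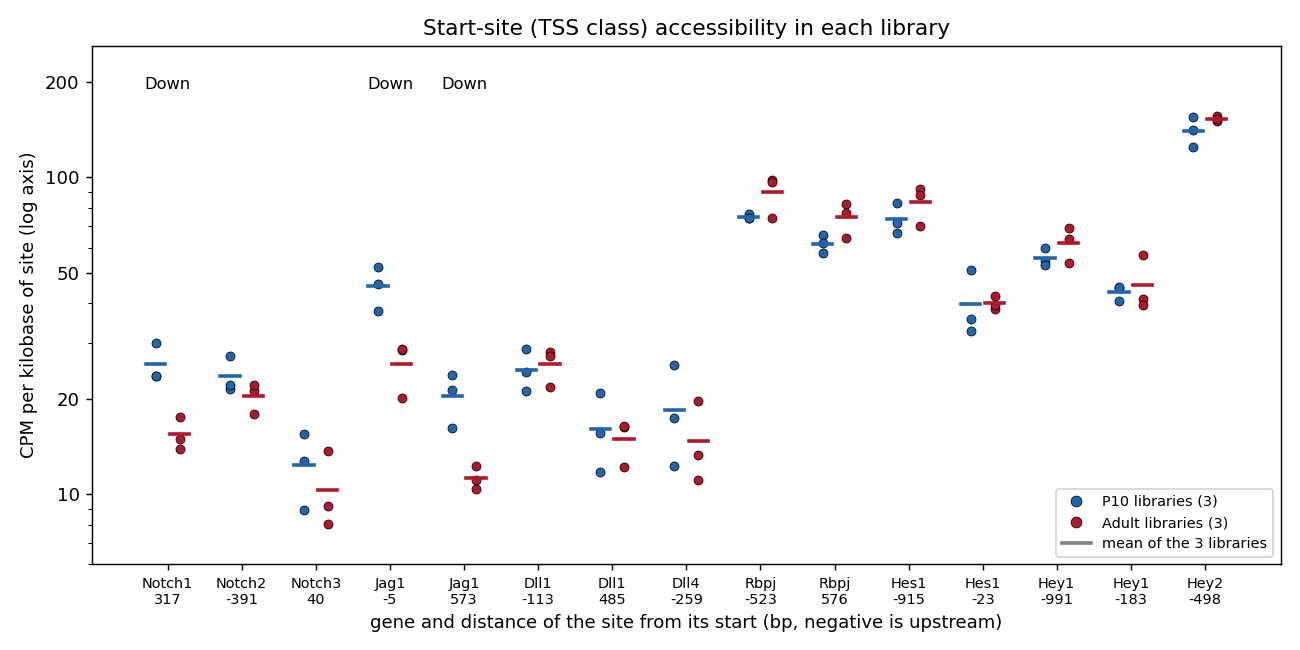
Points are the 6 libraries and bars the means of 3, in CPM per kilobase of site on a log axis, for the 15 start-site ACS. The word Down stands over the sites called Down, where the Adult points (red) all lie below the P10 points (blue). At every other site the groups overlap.

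Among the receptors, which receive the signal, Notch1 had 6 ACS, Notch2 had 7 and Notch3 had 3. The Notch1 start-site ACS (Rn5, chr3:9311258-9311705) read 6.69, 6.23 and 7.86 CPM in Adult replicates 4, 5 and 6 and 13.5, 10.6 and 10.6 CPM in P10 replicates 1, 2 and 3. All Adult libraries lay below all P10 libraries. The mean was 6.93 ± 0.842 (SD, n = 3) against 11.5 ± 1.68 CPM, and the site was called Down, at -0.74 on the log2 scale (SE 0.24, edgeR adjusted p = 0.0474), also without each library in turn. An ACS inside the gene, 20855 bp from the start, was also Down (-0.80, SE 0.29, adjusted p = 0.0851). That call was lost without Adult replicate 6 (adjusted p = 0.216) or P10 replicate 1 (adjusted p = 0.317). The Notch1 ACS of highest CPM, 3252 bp inside the gene, was not called (-0.55, SE 0.25, adjusted p = 0.207). It read 22.0 CPM in P10 replicate 1 and 9.91 and 12.2 CPM in the other P10 libraries, so that the first of these stood apart. Without P10 replicate 2 or P10 replicate 3 it passed the limits (adjusted p = 0.0993 and 0.196).

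Notch2, a receptor found widely across tissues, had its only call 13678 bp upstream (Rn5, chr2:219648833-219649576). This ACS read 25.9, 20.4 and 22.0 CPM in Adult and 15.0, 14.1 and 16.4 CPM in P10, with no overlap. It was Up by 0.59 (SE 0.19, edgeR adjusted p = 0.0564). The call was lost without Adult replicate 4 (adjusted p = 0.211) or P10 replicate 2 (adjusted p = 0.248). The Notch2 start site, its ACS of highest CPM, was not called (-0.21, SE 0.18). Notch3, the receptor of vascular smooth muscle cells and pericytes, had 3 ACS with negative log2 fold changes, from -0.37 to -0.26, and none was called. At that of highest CPM, 4971 bp inside the gene, Adult read 17.1 to 18.7 CPM and P10 21.3 to 26.6 CPM (adjusted p = 0.259). Without P10 replicate 1 it passed the limits (adjusted p = 0.172).

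Jag1 encodes the Jagged ligand, and its sites moved mostly 1 way. Of 20 ACS, 18 had a negative log2 fold change, 8 were called Down and 1 Up, with a median of -0.66. The widest, also highest in CPM and in CPM per kilobase, lies just upstream of the start (Rn5, chr3:136594113-136595101). It read 19.9, 28.1 and 28.5 CPM in Adult and 37.4, 45.7 and 51.5 CPM in P10. The P10 libraries were all higher, and the means were 25.5 ± 4.87 and 44.8 ± 7.09 CPM (SD, n = 3 each). The site was Down by 1.76-fold (log2 fold change -0.82, SE 0.18, edgeR adjusted p = 0.00389). The neighbouring start-site ACS, 573 bp inside the gene, was Down as well (-0.85, SE 0.29), with 2.96 to 3.51 CPM in Adult and 4.60 to 6.77 CPM in P10. Without P10 replicate 3 its call was lost (adjusted p = 0.249).

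Inside Jag1, 2410 bp from the start, the Adult libraries read 2.89, 3.60 and 6.32 CPM and the P10 libraries 7.11, 11.0 and 10.1 CPM. This ACS was Down by 2.23-fold (-1.16, SE 0.29, adjusted p = 0.0104). At 18686 bp inside the gene the Adult libraries read 0.452, 1.56 and 2.19 CPM and the P10 libraries 3.86, 4.92 and 4.12 CPM. With -1.66 (SE 0.40, adjusted p = 0.00741) it had the most negative log2 fold change of the 132 ACS. Both sites and the upstream start-site ACS kept their calls without each library in turn. Upstream, ACS at 28312, 50925, 74932 and 389520 bp were Down by -1.05, -1.05, -1.41 and -1.15, all with low levels of at most 5.35 CPM as a P10 mean. These 4 calls were less stable. That at 50925 bp was lost without P10 replicate 3 (adjusted p = 0.252) and that at 389520 bp without Adult replicate 6 (0.210) or P10 replicate 3 (0.328). The ACS at 74932 bp, with a mean count of 13.2, was lost without Adult replicates 4 or 5 or P10 replicate 2 (0.43, 0.268 and 0.406). That at 28312 bp was lost without Adult replicates 4 or 5 or P10 replicates 2 or 3 (0.345, 0.259, 0.348 and 0.368). In the ACS at 28312 and 74932 bp the groups overlapped.

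The only Up call of Jag1 was its farthest ACS, 599266 bp upstream (Rn5, chr3:137193374-137193800). It read 12.8, 11.5 and 14.8 CPM in Adult and 3.21, 3.85 and 5.87 CPM in P10, and the groups stood far apart. The rise was 3.02-fold (1.59, SE 0.26, edgeR adjusted p = 0.000162) and was called without each library in turn. The next gene, Btbd3, lies 631458 bp from it on the other side.

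The share of Jag1 sites called Down, 40%, was reached by 3 of the 1099 genes with at least 20 ACS, Jag1 included. The sites of other genes around Jag1 moved the same way. Of 61 such ACS within 1 Mb of the gene, 26 (42.6%) were Down and 1 was Up, with a median of -0.56. Over the 6104 ACS of chromosome 3 the median was -0.17, 13.8% were Down and 8.0% Up. Notch1 and Dll4 lie on the same chromosome. For Notch1, 53 other ACS within 1 Mb had a median of -0.28, with 6 Down and 0 Up, and for Dll4, 95 other ACS had a median of -0.16, with 8 Down and 6 Up. The part of these surroundings in the values of the 3 genes was not tested.

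**Figure D3:**
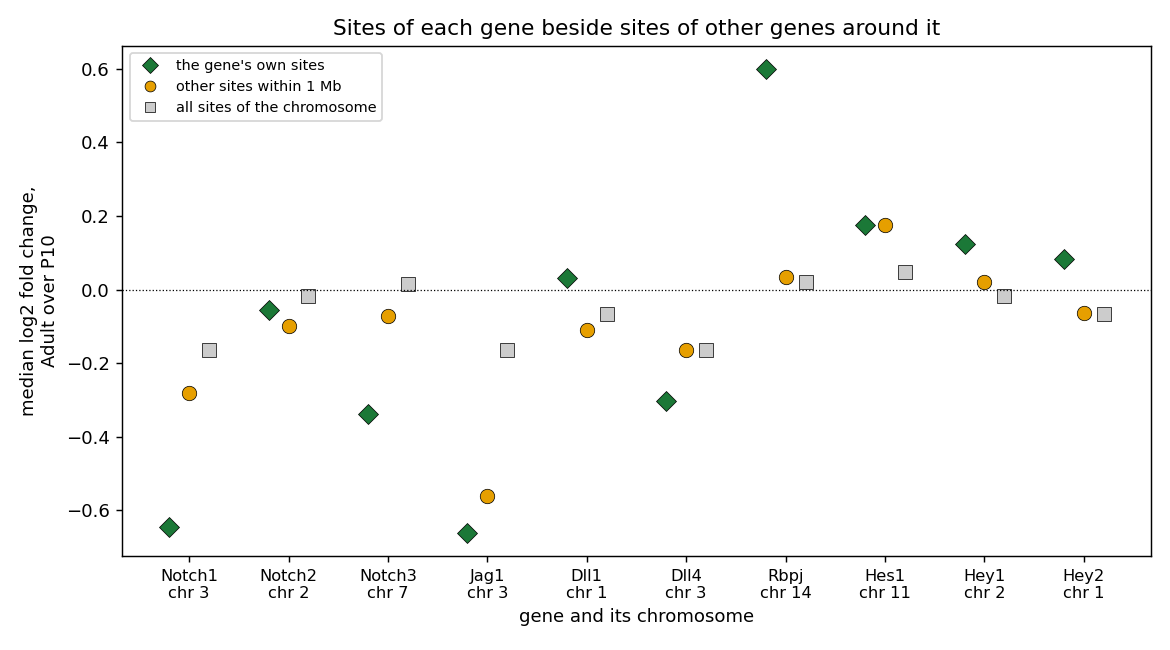
For each gene, the vertical axis gives the median log2 fold change of Adult over P10 of its own ACS (green), of other ACS within 1 Mb (orange) and of all ACS of its chromosome (grey). The own and surrounding medians lie close together for Jag1 (-0.66 and -0.56) and far apart for Rbpj (0.60 and 0.03).

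Dll1, a Delta-like ligand that marks early endocrine commitment in the embryo, had 16 ACS with 2 Up and 1 Down. All 3 calls lie downstream, between 48203 and 67683 bp from the start. The ACS at 64545 bp read 15.1, 11.2 and 11.7 CPM in Adult and 6.88, 8.49 and 6.50 CPM in P10 and was Up (0.80, SE 0.23, edgeR adjusted p = 0.0275). The ACS at 67683 bp read 3.34, 4.29 and 4.90 CPM in Adult and 8.37, 9.06 and 11.1 CPM in P10 and was Down (-1.19, SE 0.27, adjusted p = 0.00365). Groups did not overlap in either, and both calls held without each library in turn, so that neighbouring ACS moved in opposite directions. The ACS at 48203 bp was Up by 0.51 (adjusted p = 0.135), a call that was kept only without Adult replicate 5 or P10 replicate 2. Without Adult replicates 4 or 6 or P10 replicates 1 or 3 the adjusted p was 0.298, 0.256, 0.261 and 0.340. The start-site ACS of Dll1 gave 0.06 and -0.11, and the ACS of highest CPM, 5127 bp upstream, gave 50.3 ± 5.49 CPM in Adult and 44.2 ± 3.02 CPM in P10 (log2 fold change 0.19, not called). Dll4, the endothelial Delta-like ligand, had 2 ACS at -0.30 each and neither was called. Both overlap the listed span of Rpusd2 and lie outside that of Dll4, at 28 and 1817 bp from it. At that of higher CPM, 11847 bp downstream, Adult read 21.4 to 22.3 CPM and P10 24.3 to 30.3 CPM.

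Rbpj, the DNA-binding partner of the cleaved receptor, showed the reverse of Jag1. A cluster of 5 ACS lies 131374 to 164433 bp upstream of its start, and each of the 5 was Up with no overlap between groups, also without each library in turn. Their log2 fold changes were 0.59 to 1.30. The strongest, 143101 bp upstream (Rn5, chr14:60002330-60002762), read 27.9, 18.8 and 24.4 CPM in Adult and 10.8, 9.91 and 8.09 CPM in P10. The means were 23.7 ± 4.60 and 9.61 ± 1.40 CPM (SD, n = 3 each), a rise of 2.46-fold (log2 fold change 1.30, SE 0.21, edgeR adjusted p = 0.000165). The ACS at 131374 bp read 14.3, 13.8 and 17.3 CPM in Adult and 7.48, 7.35 and 7.30 CPM in P10 (1.03, SE 0.22, adjusted p = 0.00271). The cluster stands 155411 to 188565 bp from the next gene span on its other side, which has no symbol in the annotation. The ACS 164433 bp upstream lies nearer to that span, at 155411 bp, than to Rbpj, the gene named for it.

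Closer to Rbpj, the ACS 85926 bp upstream was Up (0.93, SE 0.28, adjusted p = 0.0339), with 5.54 to 8.28 CPM in Adult and 3.21 to 4.28 CPM in P10. The ACS 10243 bp inside the gene was Up by 0.61 (SE 0.22, adjusted p = 0.0834), and its call was lost without Adult replicate 6 (adjusted p = 0.309) or P10 replicate 3 (0.244). The Down call, 70038 bp upstream (-0.95, SE 0.43, adjusted p = 0.198), rested on levels of 0.584 to 1.03 CPM in Adult and 1.49 to 1.93 CPM in P10 and was lost without any 1 of the 6 libraries, with adjusted p from 0.213 to 0.439. The start sites themselves, the highest Rbpj ACS in CPM and in CPM per kilobase, gave 79.0 ± 11.9 against 66.2 ± 1.14 CPM (0.26, adjusted p = 0.360) and 68.99 ± 8.66 against 57.0 ± 3.72 CPM (0.28, adjusted p = 0.319). Adult replicate 5 lay below all P10 libraries at the former and within their range at the latter, whereas Adult replicates 4 and 6 lay above that range at both. Of 108 other ACS within 1 Mb of Rbpj, 21 were Up and 4 Down, with a median of 0.03.

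**Figure D4:**
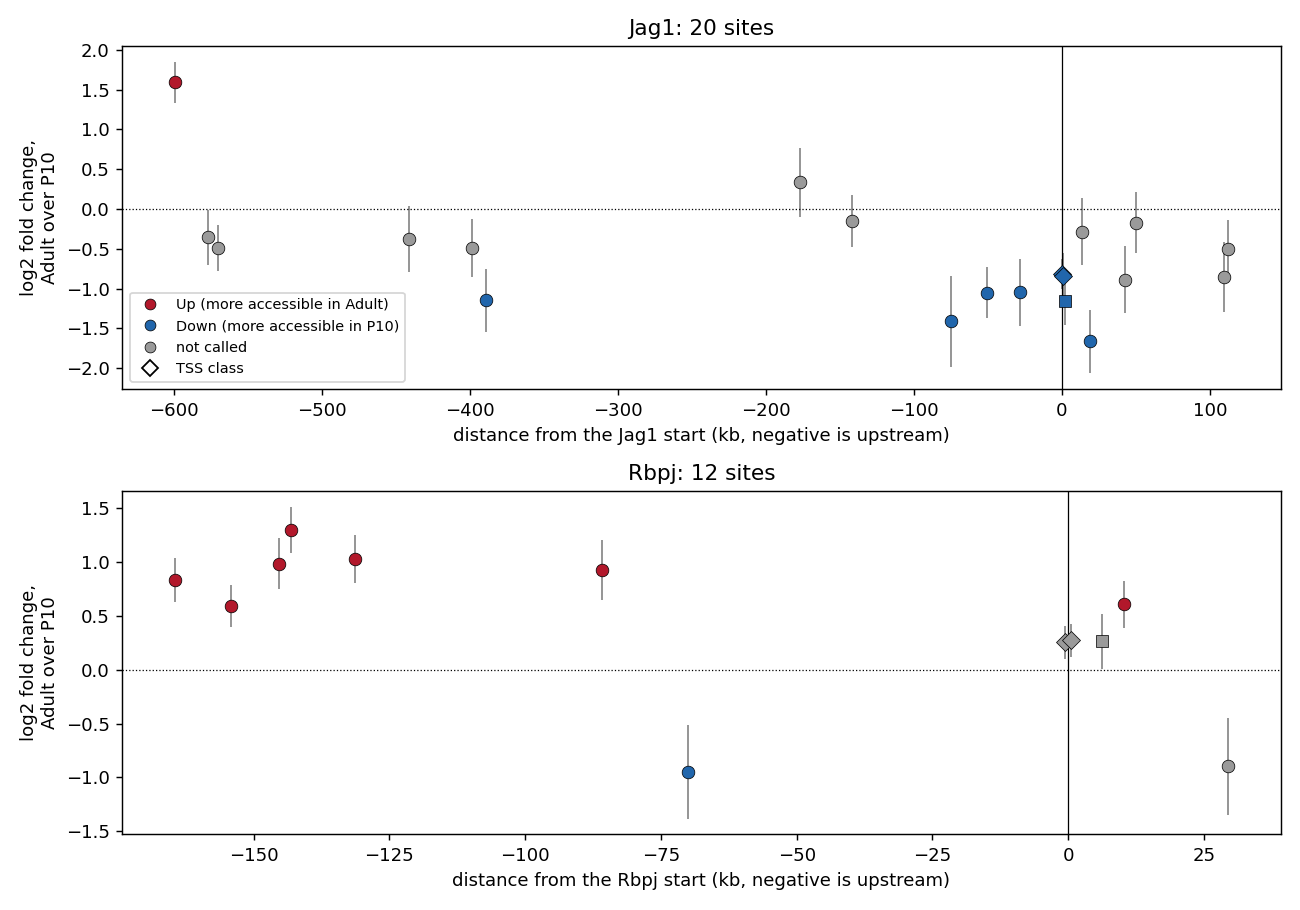
Every ACS of Jag1 (top) and Rbpj (bottom) is plotted by its distance from the gene start in kilobases against the log2 fold change of Adult over P10, with bars of 1 standard error. Diamonds are start-site, squares proximal and circles distal ACS. For Jag1 the Down sites other than that 389520 bp upstream gather around the start, and for Rbpj 5 of the 7 Up sites lie 131374 to 164433 bp upstream.

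Hes1, the main Notch target in pancreatic progenitors, had the most ACS of the 10 genes, 34, with 7 Up and 3 Down. Its start sites were not called, at 0.17 (SE 0.17, adjusted p = 0.618) 915 bp upstream and 0.01 (SE 0.24, adjusted p = 0.987) 23 bp upstream. The former read 49.0, 37.5 and 46.7 CPM in Adult and 44.2, 35.5 and 38.3 CPM in P10, so that the groups overlapped. The ACS of highest CPM, 1875 bp from the start inside the listed gene, read 58.1, 48.3 and 48.7 CPM in Adult and 43.0, 32.4 and 33.1 CPM in P10. It was Up by 0.52 (SE 0.17, edgeR adjusted p = 0.0506), and the call was lost without P10 replicate 2 (0.285) or P10 replicate 3 (0.221). The clearest distal site lies 37776 bp upstream (Rn5, chr11:77400297-77400691). It read 23.2, 19.3 and 18.4 CPM in Adult and 9.90, 7.85 and 5.82 CPM in P10, a rise of 2.58-fold (1.37, SE 0.23, adjusted p = 0.000186). The widest, 109754 bp upstream, read 33.2, 33.4 and 43.4 CPM in Adult and 22.4, 20.6 and 19.7 CPM in P10 (0.81, SE 0.18, adjusted p = 0.00331). On the other side, 83424 bp downstream, Adult read 12.7 to 17.6 CPM and P10 7.19 to 9.85 CPM (0.82, SE 0.23, adjusted p = 0.0187). These 3 distal calls held without each library in turn.

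The other Hes1 calls were weaker and fell in both directions. The Up sites 144153 and 133550 bp upstream and 52730 bp downstream had log2 fold changes of 0.79, 0.81 and 0.84. Each lost its call without 3 of the 6 libraries, with adjusted p of up to 0.438, 0.287 and 0.321. The Down sites 138872 and 7415 bp upstream and 50182 bp downstream had -0.85, -1.16 and -1.34. The first lost its call without Adult replicate 5 or P10 replicate 2 (0.214 and 0.407), the second without Adult replicate 5 or P10 replicate 3 (0.310 and 0.287), and the last, with a mean count of 11.3, without Adult replicates 5 or 6 or P10 replicate 2 (0.258, 0.224 and 0.408). Upstream of Hes1, the Down ACS at 138872 bp stood between the Up ACS at 133550 and 144153 bp. Among the 83 ACS of other genes within 1 Mb, 14 were Up and 4 Down, and their median of 0.18 was near that of the Hes1 ACS, 0.17.

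Hey1 and Hey2 are repressors of the same family that act downstream of Notch in vessels and heart. Their start sites were not called, and some of their distal sites were. Over all start-site ACS 2.73% were Up and 7.87% Down, and over all distal ACS 13.8% were Up and 6.45% Down. Hey1 had 2 Up and 0 Down among 14 ACS, both downstream and neighbours. The ACS 41662 bp downstream (Rn5, chr2:115104112-115104732) read 37.2, 29.9 and 41.5 CPM in Adult and 16.0, 14.8 and 20.6 CPM in P10 (1.08, SE 0.19, edgeR adjusted p = 0.000378). That at 38122 bp read 11.5, 12.9 and 11.3 CPM in Adult and 7.76, 5.21 and 5.66 CPM in P10 (0.93, SE 0.24, adjusted p = 0.0124). Groups stood apart in both, and both calls held without each library in turn. Its start sites gave 0.16 and 0.07.

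Hey2 had 3 Up and 1 Down among 18 ACS, beside 12.3% Up and 6.63% Down over all ACS. The ACS 108495 bp downstream (Rn5, chr1:30742170-30742408) read 11.4, 8.96 and 11.2 CPM in Adult and 3.49, 2.28 and 3.70 CPM in P10. It was Up by 3.29-fold (1.72, SE 0.27, edgeR adjusted p = 9.8e-05), the largest log2 fold change of the 132 ACS, and was called without each library in turn. The ACS 26522 bp downstream read 28.9, 23.5 and 32.1 CPM in Adult and 15.0, 19.8 and 18.7 CPM in P10 (0.66, SE 0.19, adjusted p = 0.0276) and was called without each library in turn. The Up ACS at 107293 bp (0.58, adjusted p = 0.146) lost its call without Adult replicate 6 (0.388) or P10 replicates 1, 2 or 3 (0.274, 0.350 and 0.201). The Down ACS, 247013 bp upstream (-1.15, SE 0.38, adjusted p = 0.0577), lost it without P10 replicate 3 (0.312). The start-site ACS read 98.6 to 102.1 CPM in Adult and 81.5 to 101.2 CPM in P10 (0.13, SE 0.14, not called).

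Summed over all ACS of a gene, 6 of the 10 genes were called, against 10.5% Up and 7.63% Down over the 14776 genes with an ACS. Of these 14776, 2418 have at least 12 ACS, as do Jag1, Dll1, Rbpj, Hes1, Hey1 and Hey2. Shares over genes with like numbers of ACS were not computed. The totals were scaled with their own TMM factors. Jag1 (-0.55, SE 0.15, edgeR adjusted p = 0.0456), Notch1 (-0.45, SE 0.15, adjusted p = 0.0998) and Notch3 (-0.36, SE 0.14, adjusted p = 0.139) were Down. Rbpj (0.48, SE 0.13, adjusted p = 0.0328), Hes1 (0.38, SE 0.12, adjusted p = 0.0850) and Hey1 (0.30, SE 0.12, adjusted p = 0.155) were Up. The Rbpj sum read 286.7, 239.1 and 314.3 CPM in Adult and 197.1, 206.8 and 198.3 CPM in P10. The Jag1 sum read 59.5, 79.2 and 91.7 CPM in Adult and 88.4, 117.9 and 129.6 CPM in P10, and here the groups overlapped. Notch2 (0.07), Dll1 (0.14), Dll4 (-0.31) and Hey2 (0.15) were not called.

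Of the 6 totals, that of Rbpj kept its call without each library in turn. Jag1 lost it without Adult replicate 4 (adjusted p = 0.213) and Notch1 without Adult replicate 6 (0.251) or P10 replicate 1 (0.307), the latter with a log2 fold change of -0.23. Hes1 lost it without Adult replicates 4 or 6 or P10 replicate 2 (0.205, 0.237 and 0.368), and Hey1 without these or P10 replicate 1 (0.267, 0.442, 0.466 and 0.245). Notch3 kept it only without P10 replicate 1, with adjusted p from 0.207 to 0.461 otherwise. The number of totals called was 2 without Adult replicate 4, 2 without Adult replicate 6 and 3 without P10 replicate 2. With cyclic loess, Notch3, Hes1 and Hey1 were not called, and with column sums Hey1 was not called whereas Dll4 was Down (-0.40, adjusted p = 0.139).

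**Figure D5:**
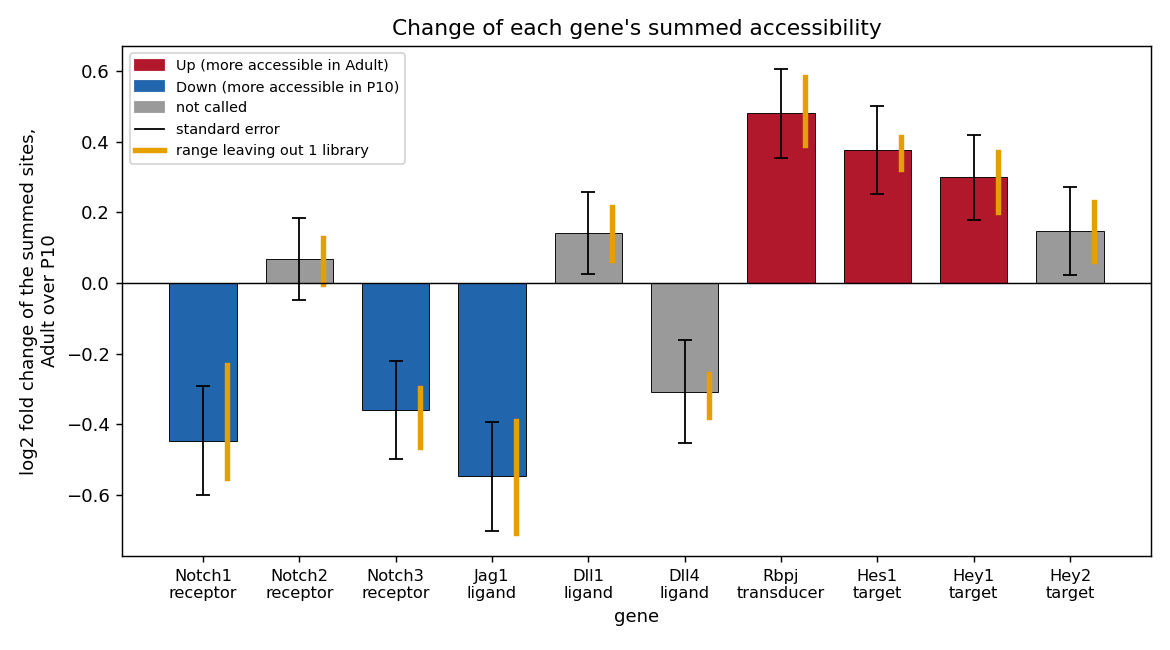
Bars give the log2 fold change of Adult over P10 for the counts summed over all ACS of a gene, coloured by call, with bars of 1 standard error and, in orange, the range when 1 of the 6 libraries is left out. Rbpj is highest at 0.48 and Jag1 lowest at -0.55.

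ACS were also nearest to marker genes of other cell types, in some of which the Notch genes are known to act. For some of these lists the summed levels of the ages did not overlap. An ACS nearest to a marker gene does not show that the cell type was present. The counts of calls stand beside 12.3% Up and 6.63% Down over all ACS, and beside 2.73% and 7.87% at start sites. Duct markers had 60 ACS at 9 of 10 genes, without Krt7, with 5 Up and 7 Down. Their summed level was 372 to 406 CPM in Adult and 345 to 356 CPM in P10. Over their 7 start-site ACS it was 46.5 to 49.0 CPM in Adult and 64.1 to 68.97 CPM in P10. Of these 7, 3 were Down. Summed per gene, Cftr was Up (0.61), Muc1 was Down (-0.63) and the other duct markers with ACS were not called. Endothelial markers had 97 ACS at 15 of 15 genes, with 12 Up and 7 Down, and summed to 772 to 850 CPM in Adult and 708 to 732 CPM in P10. Their totals moved in both directions, with Cdh5 and Kdr Up (0.52 and 0.33) and Erg, Plvap and Eng Down (-0.57, -0.50 and -0.89). The totals of Plvap and Eng rest on 1 ACS each and that of Erg on 2, against 28 for Cdh5 and 11 for Kdr. The Eng ACS read 1.6 to 2.7 CPM in Adult and 2.6 to 4.7 CPM in P10. The other endothelial totals were not called. Only 3 of the 15 had a start-site ACS, together at 25.8 to 34.3 CPM in Adult and 32.2 to 40.0 CPM in P10, and Pecam1, Cdh5 and Tie1 were among the 12 without. Mesenchymal markers, at 12 of 12 genes, had 10 Up and 7 Down among 76 ACS. They summed to 486 to 555 CPM in Adult and 476 to 487 CPM in P10. Of the mesenchymal gene totals, Rgs5 was Up (0.86, 5 ACS), Cspg4 was Down (-0.69, 2 ACS) and the others were not called. Acinar markers, at 11 of 13 genes and without Cela1 and Cel, had 5 Up and 7 Down among 68 ACS and summed to 428 to 487 and 415 to 444 CPM. Immune markers, at 8 of 10 genes, had no start-site ACS and summed to 79.8 to 83.5 CPM in Adult and 76.5 to 86.9 CPM in P10. Among islet endocrine markers, the ACS of alpha cell genes summed to 1077 to 1254 and 982 to 1067 CPM, with 24 Up and 10 Down among 136. Those of delta cell genes summed to 308 to 400 and 324 to 377 CPM, with 4 Up and 5 Down among 31. Over the 7 delta start-site ACS the sums were 39.6 to 44.0 CPM in Adult and 52.3 to 57.2 CPM in P10. Of these 7, 3 were Down, as many as among the 7 duct start-site ACS. Proliferation genes, at 7 of 7, summed to 405 to 445 and 422 to 461 CPM. The part of these cell types in the Notch values was not tested.

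Beyond the 10 genes, a list of 56 other genes of the pathway had ACS at 46, with 31 Up and 23 Down among 296 ACS and a median of -0.04, beside 12.3% Up, 6.63% Down and -0.01 over all ACS. Their 42 start-site ACS counted 0 Up and 3 Down, beside 2.73% and 7.87% over all ACS of the class. Summed per gene, 1 was Up, 5 were Down and 40 were not called, beside 10.5% Up and 7.63% Down over all genes. The Up total was that of Numb, an inhibitor of the receptor, with 0.74 (SE 0.30, edgeR adjusted p = 0.154). Down were Heyl (-0.75, adjusted p = 0.0188) and Hes5 (-1.35, adjusted p = 0.0358), both target repressors. Down as well were the corepressor Spen (-0.44, adjusted p = 0.0309), the ubiquitin ligase Dtx4 (-0.49, adjusted p = 0.0340) and the Delta-like protein Dlk1 (-0.57, adjusted p = 0.0548). The Hes5 total rests on 1 ACS, at 1.34 to 1.86 CPM in Adult and 2.67 to 5.15 CPM in P10. That of Numb rests on 2 ACS, summing to 4.28 to 6.42 and 2.72 to 4.41 CPM. Neither Hes5 nor Numb had a start-site ACS. The start-site ACS of Heyl read 6.69, 6.91 and 6.83 CPM in Adult and 15.3, 16.4 and 14.0 CPM in P10 and was Down (-1.16, SE 0.22, adjusted p = 0.000968), whereas those of Hey1 and Hey2 were not called. The difference between these genes was not tested. At Dtx4, an ACS 2074 bp inside the gene fell from 30.7 ± 3.69 to 17.4 ± 1.71 CPM (-0.82, adjusted p = 0.0044). The 3 Up calls of smallest p belonged to Tle1 and Tle4, corepressors of the Groucho family with 42 and 45 of the 296 ACS. Their totals were not called (0.26 and 0.03). At Tle1, an ACS 15433 bp inside the gene read 14.5 ± 4.74 CPM in Adult and 5.73 ± 0.395 CPM in P10 (1.34, adjusted p = 0.000641), and that 720903 bp upstream read 23.4 ± 6.13 and 10.6 ± 1.11 CPM (1.15, adjusted p = 0.000695). At Tle4, an ACS 706157 bp upstream was Up (1.65, adjusted p = 0.000502), with 9.02 ± 2.69 against 2.86 ± 0.914 CPM, and one 49515 bp upstream was Down (-2.04, adjusted p = 0.003), with 1.20 ± 0.897 against 4.75 ± 1.61 CPM. The groups did not overlap in these 6 ACS, and the calls held without each library in turn.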

How the data were processed

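Per the labels and the methods of the study, the authors mapped the read pairs to Rn5 using BWA 0.7.13 and filtered out mitochondrial and poorly mapped reads. The libraries of an age were concatenated for peak calling by MACS2 2.1.1, the peaks of both ages were merged, and the authors counted Tn5 integrations in each ACS and library. The removal of duplicates is not given in the sources used here. Whole-number counts in the deposited table were used as they stand. The deposited table also holds the authors' own comparison (log2 fold change, average log2 CPM, an F score, a p-value and an FDR), which was not used.

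Each of the 101603 distinct ACS, of 101941 entries, entered once. Counts were tested with the quasi-likelihood F test of edgeR 4.0.16 in R 4.3.3, with TMM factors, estimated dispersions and age as the only term, on all 6 libraries. P-values were adjusted by Benjamini-Hochberg over all ACS, or over all 14776 genes for counts summed per nearest gene. A call needed p below 0.05 and FDR below 0.2. The standard error is approximate, the size of the log2 fold change divided by the square root of F. CPM are TMM-scaled. P-values rest on the spread of 3 libraries per age, which covers 3 rats and 3 litters. The fit was tested on simulated data with known changes.

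Named ACS were all of the TSS class, all called ones and that of highest mean CPM for each gene, and for the pathway list the 6 ACS of lowest p, 3 per direction. The genes and lists were chosen with earlier results of these data known. Alternatives were column sums, median-of-ratios factors, DESeq2 1.42.0, limma 3.58.1 with voom or after cyclic loess, filterByExpr, a mean count of at least 50, repeated entries kept, FDR below 0.05, and leaving out each library. Lists were matched by symbol or gene identifier, and promoter sequences by symbol. A list of markers of a further cell type is not reported here.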

Additional observations from a re-analysis of the deposited data

How the results depend on the processing

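No paired analysis was possible because the adult males and the litters of pups were different animals, with no link between them recorded. At an FDR below 0.05 the Notch ACS counted 14 Up and 6 Down, 2 gene totals were called (Jag1 and Rbpj), and the whole table had 9122 ACS and 675 gene totals called. With cyclic loess 3 gene totals were called. Leaving out 1 library gave 17 to 28 Up and 10 to 18 Down Notch ACS, 2 to 6 Notch gene totals, 11258 to 20447 ACS and 691 to 3338 gene totals of the whole table. Of the 39 called Notch ACS, 20 kept their call without each library in turn (15 of 23 Up, 5 of 16 Down), 36 were called by DESeq2, which gave 2 others no adjusted p, and 38 by limma voom. With column sums 45 were called, 37 of them shared, and the median log2 fold change of all ACS was -0.10. Over the named ACS and gene totals and all alternatives, 813 of 954 values kept their direction and their side of the limits, 103 lost and 17 gained a call, and 21 changed sign.

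Signs changed only where no call was made. The Dll1 ACS 113 bp upstream (0.06) gave -0.040 with column sums, -0.041 with cyclic loess and -0.031 at a mean count of at least 50, and -0.060 to 0.17 when 1 library was left out. The Dll1 ACS at 485 bp (-0.11) ranged from -0.30 to 0.11 when 1 library was left out. The Hes1 ACS 23 bp upstream (0.01) gave -0.082, -0.11 and -0.076 under the 3 settings above and -0.12 to 0.21 without 1 library. The Hey1 ACS 183 bp upstream (0.07) gave -0.022, -0.044 and -0.013 and a range of -0.11 to 0.17. With cyclic loess the totals of Dll1 and Hey2 were -0.011 and -0.023. That of Notch2 was -0.018 with column sums and ranged from -0.0041 to 0.13 without 1 library. The cause of these changes was not tested. The Down ACS of Hes1 50182 bp downstream and of Jag1 74932 bp upstream, with mean counts of 11.3 and 13.2, set the limit of depth.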
